A study of Mus musculus with 60 samples.

Results

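Collagen chains are the protein-coding mouse genes whose symbol has the form Col, a type number, the letter a and a chain number. They were 44 of the 56980 gene identifiers in each count table: 11 fibrillar chains, 6 basement membrane (type IV) chains, 9 fibril-associated collagens with interrupted triple helices (FACIT) and 18 others, among them the type VI and type VIII chains. Collagens are secreted proteins in which chains wind around each other into a triple helix, and a fibroblast in the dermis or in culture is a main source of the fibrillar types I, III and V. Type I is built of the products of Col1a1 and Col1a2, the widespread form of type IV of those of Col4a1 and Col4a2, and FACIT molecules sit on the surface of fibrils. Ascorbic acid is a cofactor of the enzymes that hydroxylate proline in collagen, and TGF-beta, through its receptor ALK5, is a textbook inducer of fibrillar collagen genes.

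RNA-seq counts came from cultured mouse fibroblasts in 20 groups of 3 libraries. In the reprogramming table, tail tip fibroblasts carrying the doxycycline-inducible factors OCT4, SOX2, KLF4 and MYC (4F) were read at days 0, 2 and 4 of doxycycline (2 µg/ml), each without and with VC, which is ascorbic acid (50 µg/ml) plus the GSK3 inhibitor named CHIR-99201 in the labels (3 µM). D/KO 4F cells had the genotype 4FJ_ERCC1_(d/-), that is 1 truncated and 1 absent allele of Ercc1, a DNA repair endonuclease subunit, and came from a male of 8 weeks. WT 4F cells were 4FJ_(+/-)_OCT4-GFP from a female of 22 weeks. In the inhibitor table, ERCC1_(d/-) tail tip fibroblasts from a female of 4 weeks (D/KO control) were given Repsox (0.1 µM), Vactosertib (0.1 µM), A83-01 (1 µM) or DMH-1 (1 µM) for 3 days. Repsox and A83-01 inhibit ALK5, Vactosertib inhibits ALK5 and ALK2, and DMH-1 inhibits ALK2. The same table holds ERCC1_(+/+)_WT fibroblasts of tail tip and of skin from a female of 14 weeks, and 4FJ_(+/-)_OCT4-GFP cells from a female of 22 weeks labelled TGFB, whose treatment is not explained further. Genotype cannot be told apart from age and cell line, since each line came from 1 mouse. In the reprogramming table it cannot be told apart from sex either. Nothing in the labels says that the 3 libraries of a group were separate cultures, so p-values measure the spread between libraries, which may be technical. The 4F cassette sits in the Col1a1 locus, so Col1a1 in 4F lines is read from a locus with 1 modified allele, and the part of this in its values was not tested.

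Libraries held 16538374 to 18484951 counts for reprogramming and 17102639 to 30599138 for inhibitors. Of 10 fibroblast markers 1 was at 0 in each group. In D/KO 4F cells the summed level of 7 endothelial markers was 739 to 836 CPM (counts relative to the scaled total of the library) at day 0 and 279.8 to 322 CPM with VC, against 15 to 17.8 CPM in WT 4F cells at day 0. Pecam1, a defining endothelial gene, was 205 CPM in D/KO 4F cells and 0.142 CPM in WT 4F cells. Summed fibroblast markers in D/KO 4F cells were 24029 to 29393 CPM at day 0 and 15077 to 17012 CPM at day 4. With VC they were 18002 to 23131 CPM and 14440 to 15552 CPM. In WT 4F cells the sums were 18600 to 19453 CPM at day 0 and 16401 to 16729 CPM at day 4. With VC these were 17608 to 18912 CPM and 14946 to 17389 CPM. The part of these markers in the collagen results was not tested. Replicate 1 of the WT skin control stood apart, with 8.13% of its counts in collagen genes against 16.8% and 15.7% in the other libraries of that group. D/KO 4F day 0 replicate 1 was high in fibrillar chains, with Col3a1 at 19731, 13045 and 8521 CPM in the 3 libraries. In bulk RNA, fewer cells of a type and less RNA per cell cannot be told apart.

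Collagen genes took between 3.64% and 22.2% of all counts of a library in the reprogramming table. In D/KO 4F cells the share was 14.2, 10.7 and 9.40% at day 0 and 19.5, 22.2 and 21.8% at day 0 plus VC, so the groups did not overlap. At day 4 it had come down to 4.60, 4.19 and 5.41% without VC and 3.95, 3.64 and 3.81% with it. The share in WT 4F cells was 7.05, 7.15 and 6.93% at day 0 without VC and 16.6, 16.7 and 17.1% with it, and at day 4 these values were 5.87, 5.75 and 5.88% and 8.15, 7.29 and 7.13%. VC before doxycycline thus went with the highest shares in both lines, and the lowest shares were those of D/KO 4F cells at day 4 plus VC. Most of this was 3 genes: Col1a1, Col1a2 and Col3a1 held 68.3 ± 2.45% of the collagen counts in D/KO 4F cells at day 0 and 81.1 ± 2.45% with VC (mean ± SD, n = 3).

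**Figure D1:**
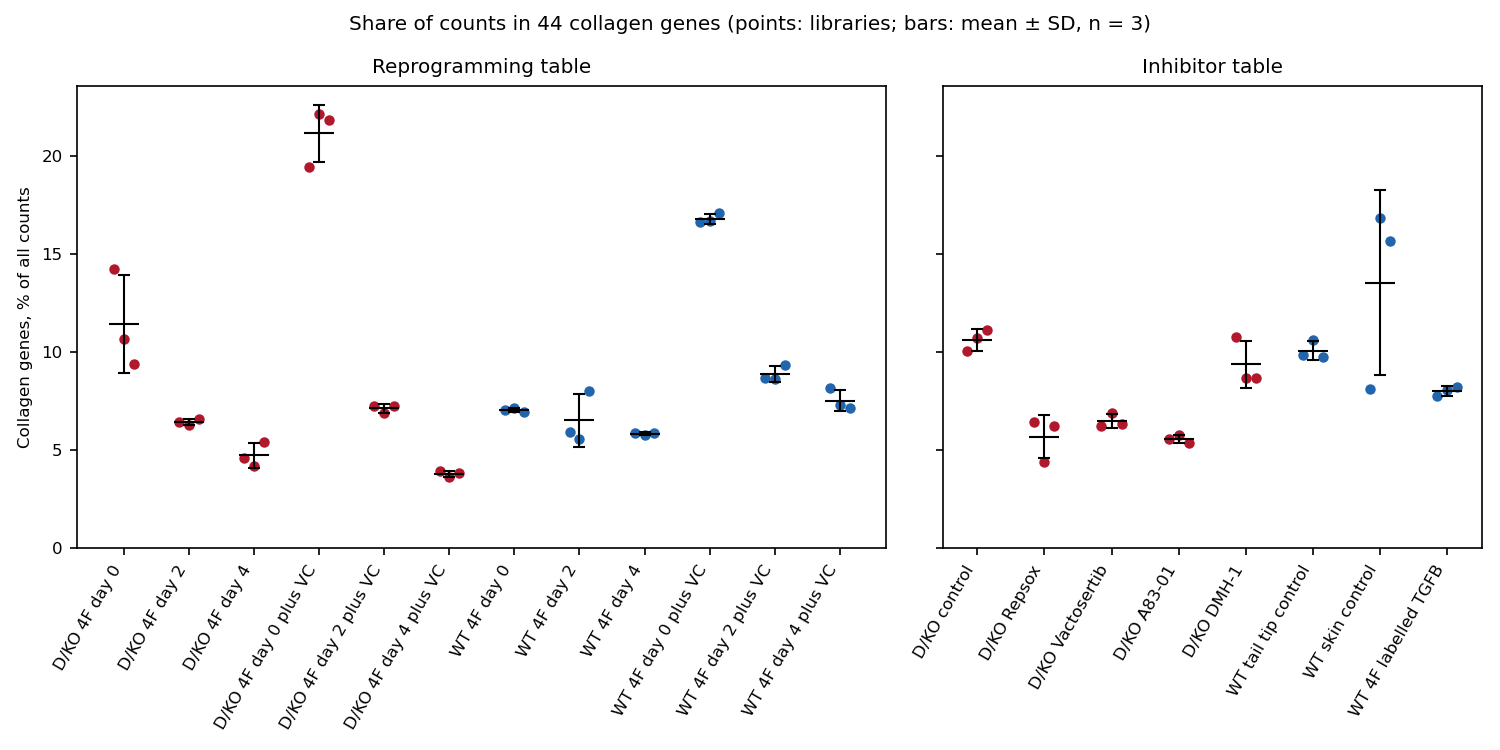
Percent of all counts in the 44 collagen genes (vertical axis) for each group of the reprogramming table (left) and the inhibitor table (right). Points are libraries (red D/KO, blue WT) and bars the mean ± SD of 3. Groups at day 0 plus VC stand highest, at 21.2 ± 1.47% in D/KO 4F and 16.8 ± 0.254% in WT 4F cells, and D/KO 4F cells at day 4 plus VC lowest, at 3.80 ± 0.156%.

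Levels between genes were compared per kilobase of exon. In D/KO 4F cells at day 0 Col1a1 led with 7248 ± 1593 CPM per kb, followed by Col1a2 with 1801 ± 488 and Col3a1 with 1402 ± 575 CPM per kb (mean ± SD, n = 3), and the last pair did not differ beyond their spread. The next were Col6a1 with 893 ± 57.9, Col5a1 with 855 ± 187 and Col5a2 with 755 ± 282 CPM per kb, whose ranges overlapped. Col4a1 and Col4a2 stood at 422 ± 85.2 and 436 ± 40.1 CPM per kb. The filter on low counts left 36 members for reprogramming and 38 for inhibitors. The 8 that were not tested in the former were Col4a3, Col6a6, Col9a1, Col9a3, Col13a1, Col19a1, Col22a1 and Col26a1, and the 6 in the latter were Col9a1, Col9a2, Col9a3, Col13a1, Col19a1 and Col26a1. Col19a1 was under 3 counts in every library of both tables, and Col9a1 in every library of the inhibitor table. Col9a2, the one cartilage chain of type IX that was tested, in the reprogramming table, stayed under 1 CPM in all of its libraries.

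Type IV genes lie in head-to-head pairs, so each pair shares the stretch between its starts. In the files (GRCm39) Col4a1 spans chr8:11248423-11362826 on the minus strand and Col4a2 spans chr8:11362805-11499287 on the plus strand, so that these spans overlap by 22 bases, while in GENCODE M39 their exons share 311 bases. Col4a6 and Col4a5 are such a pair on chromosome X. The promoter windows of both pairs are shown because the pairs moved in opposite directions with VC in D/KO 4F cells, and that of Col1a2 because its chain is among the most abundant. Windows run from 250 bases before to 50 after the start (RefSeq, GRCm38.p6), of which 35 members have one. Capitals mark motifs found on either strand. CCAAT was in 37.4% of all 32851 windows and in 13 of 38 collagen windows, where some genes have more than 1. GGGCGG was in 35.7% of all and 23 collagen windows. TATAAA was in 13.6% of all and 5 collagen windows. CAGAC was in 49.6% of all and 20 collagen windows. No motif in this list is part of another.
Col4a1 (chr8:11312777-11313076, minus strand): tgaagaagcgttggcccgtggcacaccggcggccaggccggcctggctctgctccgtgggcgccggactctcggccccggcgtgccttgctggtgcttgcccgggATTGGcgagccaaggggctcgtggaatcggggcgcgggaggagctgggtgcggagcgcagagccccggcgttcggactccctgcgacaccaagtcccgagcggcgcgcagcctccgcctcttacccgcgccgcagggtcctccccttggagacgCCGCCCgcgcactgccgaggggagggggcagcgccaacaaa
Col4a2 (chr8:11312555-11312854, plus strand): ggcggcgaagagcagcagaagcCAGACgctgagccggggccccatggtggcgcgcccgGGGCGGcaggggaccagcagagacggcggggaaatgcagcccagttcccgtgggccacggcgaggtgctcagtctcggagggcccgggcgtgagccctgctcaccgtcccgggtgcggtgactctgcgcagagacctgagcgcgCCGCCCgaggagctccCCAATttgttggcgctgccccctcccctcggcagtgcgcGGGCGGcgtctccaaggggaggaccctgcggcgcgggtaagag
Col4a5 (chrX:141475169-141475468, plus strand): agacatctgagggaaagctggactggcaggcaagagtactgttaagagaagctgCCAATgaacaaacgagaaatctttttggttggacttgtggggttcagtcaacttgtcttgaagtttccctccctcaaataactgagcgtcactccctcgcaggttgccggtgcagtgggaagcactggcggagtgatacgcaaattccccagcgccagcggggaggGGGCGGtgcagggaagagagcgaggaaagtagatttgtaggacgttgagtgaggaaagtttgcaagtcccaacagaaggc
Col4a6 (chrX:141474027-141474326, minus strand): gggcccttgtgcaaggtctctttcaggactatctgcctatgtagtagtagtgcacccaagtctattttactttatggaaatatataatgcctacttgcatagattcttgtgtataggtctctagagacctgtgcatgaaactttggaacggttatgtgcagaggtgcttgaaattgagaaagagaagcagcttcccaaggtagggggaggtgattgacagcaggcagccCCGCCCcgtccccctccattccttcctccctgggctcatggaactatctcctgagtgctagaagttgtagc
Col1a2 (chr6:4505368-4505667, plus strand): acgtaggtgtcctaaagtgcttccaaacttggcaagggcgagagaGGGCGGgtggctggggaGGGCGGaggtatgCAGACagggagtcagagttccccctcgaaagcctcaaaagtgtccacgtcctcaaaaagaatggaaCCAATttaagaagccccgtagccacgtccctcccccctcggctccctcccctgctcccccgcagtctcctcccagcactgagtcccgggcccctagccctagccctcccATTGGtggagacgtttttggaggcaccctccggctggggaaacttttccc
The windows of Col4a1 and Col4a2 share 78 bases, identical in letters, and have 74.0% and 73.7% G plus C, against 52.7% and 48.3% for Col4a5 and Col4a6, whose starts lie 1343 bases apart. None of these 5 windows holds TATAAA, and a match of letters is a description, not a binding site.

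VC was first compared without doxycycline, at day 0. In D/KO 4F cells 17 of the 36 tested members rose and 7 fell, against 12.1% and 14.0% of all genes tested, and in WT 4F cells 16 of the 36 tested members rose and 5 fell, against 15.1% and 14.4% of all genes tested. The summed level of 10 chondrocyte markers went the other way, from 97.4 to 149 CPM to between 19.5 and 32.5 CPM in D/KO 4F cells and from 82.3 to 89.3 CPM to between 29.3 and 37.8 CPM in WT 4F cells, with 2 to 4 of them at 0 in each of these groups, and its part was not tested. Among fibrillar chains 6 rose and 1 fell of 11 in D/KO 4F and 4 rose and 1 fell of 11 in WT 4F cells. Col1a1 read 59622, 40929.7 and 42150.0 CPM in D/KO 4F cells at day 0 and 103863, 164564 and 139377 CPM with VC, and 19323, 20294 and 19778 against 97341, 89864 and 102498 CPM in WT 4F cells. The groups did not overlap in either line. The log2 fold change was 1.51 ± 0.16 (SE, edgeR adjusted p = 2.55e-09) in D/KO 4F and 2.29 ± 0.16 (SE, edgeR adjusted p = 2.64e-13) in WT 4F cells. Col1a2 rose with it, with log2 fold changes of 1.21 ± 0.14 (SE, edgeR adjusted p = 1.06e-08) and 1.68 ± 0.14 (SE, edgeR adjusted p = 6.93e-12), and so did Col12a1, a FACIT that binds type I fibrils, with 1.66 ± 0.20 and 1.51 ± 0.20. Col7a1, which forms the anchoring fibrils under the epidermis, read 46.3, 29.7 and 44 CPM in D/KO 4F cells at day 0 and 185, 171 and 233 CPM with VC. Its log2 fold change was 2.29 ± 0.18 (SE, edgeR adjusted p = 1.84e-12) there and 1.90 ± 0.18 (SE, edgeR adjusted p = 1.89e-10) in WT 4F cells. The largest rise in both lines was that of Col25a1, a transmembrane collagen, which read 0.451, 0.763 and 1.00 CPM at day 0 and 18.5, 16.4 and 20.4 CPM with VC in D/KO 4F cells, a log2 fold change of 4.62 ± 0.45 (SE, edgeR adjusted p = 3.31e-10). The value in WT 4F cells was 3.86 ± 0.42 (SE, edgeR adjusted p = 5.21e-09).

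Not all chains rose with VC. Col15a1, a basement membrane zone collagen whose C terminus yields restin, read 359, 345 and 279.6 CPM in D/KO 4F cells at day 0 and 27.6, 28.8 and 23.4 CPM with VC, a log2 fold change of -3.62 ± 0.16 (SE, edgeR adjusted p = 3.69e-19). WT 4F cells went from 84.9, 55.0 and 58.7 to 24.6, 30.5 and 24.6 CPM (log2 fold change -1.31 ± 0.15, edgeR adjusted p = 1.03e-08). Both lines thus came to a similar low level with VC. The other called falls by size were Col28a1 (-1.89), Col18a1 (-0.99) and Col4a1 (-0.92) in D/KO 4F cells and Col11a2 (-2.13), Col28a1 (-1.47) and Col8a2 (-1.46) in WT 4F cells, given as log2 fold changes. Col11a2 and Col8a2 are low here, with at most 2.60 and 28.6 CPM in a WT 4F day 0 library.

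Most fibrillar chains fell by day 4 of doxycycline without VC in D/KO 4F cells. By day 2, 4 of the 36 tested members rose and 17 fell, against 14.3% and 13.2% of all genes tested, and by day 4, 6 of the 36 tested members rose and 20 fell, against 18.3% and 18.7% of all genes tested. At day 2 the largest rises were Col28a1 (1.76), Col11a1 (1.07) and Col23a1 (0.79) and the largest falls Col27a1 (-1.83), Col25a1 (-1.81) and Col5a3 (-1.74), in log2 fold change. Col3a1 at day 2 had a log2 fold change of -0.49 ± 0.17, and did not pass without day 0 replicate 1 (-0.14), day 2 replicate 2 (-0.52) or day 2 replicate 3 (-0.38). The call of Col25a1 was lost without day 0 replicate 2 or 3 or day 2 replicate 1 or 2 (-1.25 to -1.79), and its value was -3.00 without day 2 replicate 3. That of Col23a1 was lost without day 0 replicate 2 or 3 or day 2 replicate 1 (0.57 to 0.79). Col1a1 read 11256, 11493 and 10216 CPM at day 4, all below day 0, with a log2 fold change of -2.11 ± 0.16 (SE, edgeR adjusted p = 3.85e-13). Col5a1, a chain of the type V that nucleates type I fibrils, went from 9099.5, 6851 and 6005 to 1853, 1523 and 2732 CPM (log2 fold change -1.85 ± 0.15, edgeR adjusted p = 1.36e-12). Col5a3, the gene of the alpha 3 chain of type V, fell from 499, 357 and 385 to 46.4, 39.9 and 73.9 CPM (log2 fold change -2.95 ± 0.16, edgeR adjusted p = 4.04e-17), the largest fall of a called member at that day. Of the 11 fibrillar chains, 10 fell at day 4, but without day 0 replicate 1 the low chains Col2a1 (-0.40), Col24a1 (-0.45) and Col11a2 (-1.35) did not pass. Without day 4 replicate 2 they did not pass either (-0.95, -0.35 and -1.52). The call of Col24a1 was also lost without day 0 replicate 2 or day 4 replicate 1, and that of Col11a2 without day 4 replicate 3. Col11a1, which in cartilage takes the place of the type V chains, was the fibrillar chain that rose. It read 104, 86.6 and 42.8 CPM at day 0 and 216, 155 and 278 CPM at day 4, a log2 fold change of 1.47 ± 0.20 (SE, edgeR adjusted p = 1.68e-07). The largest rises at day 4 were Col17a1 (2.25), Col28a1 (1.78) and Col11a1 (1.47), in log2 fold change. Col17a1, a hemidesmosome collagen of keratinocytes, was still low at 2.61, 2.25 and 2.75 CPM. Summed keratinocyte markers (10 genes) were 6.75 to 8.96 CPM at day 0 and 78.1 to 93.3 CPM at day 4. Of these, 2 were at 0 at day 0, and their part was not tested. The summed level of 8 osteoblast markers moved with the fibrillar falls in D/KO 4F cells, from 1359 to 2041 CPM at day 0, with none of the 8 at 0, to between 284 and 546 CPM at day 4. It was 351 to 537 CPM with VC at day 0, where most called fibrillar chains rose, and 181 to 220 CPM at day 0 and 164 to 171 CPM at day 4 in WT 4F cells. Its part in these results was not tested.

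In WT 4F cells at day 2, 3 of the 36 tested members rose and 8 fell, against 6.26% and 4.30% of all genes tested, and at day 4, 8 of the 36 tested members rose and 15 fell, against 11.7% and 12.8% of all genes tested. The 11 calls at day 2 depended on single libraries, with 4 to 10 left when a library was removed, and the lowest count was without day 2 replicate 2. The largest falls at day 2 were Col25a1 (-2.27), Col10a1 (-1.49) and Col12a1 (-1.13), in log2 fold change. Without day 0 replicate 3 or day 2 replicate 2 or 3 the call of Col25a1 was lost (-1.68 to -2.16), and without day 2 replicate 1 its value was -4.14. The call of Col10a1 was lost without day 0 replicate 2 or 3 or day 2 replicate 2 or 3 (-1.07 to -1.57). Col1a1 read 19323, 20294 and 19778 CPM at day 0 and 12251, 11075 and 11747 CPM at day 4, a log2 fold change of -0.76 ± 0.16 (SE, edgeR adjusted p = 0.000399). Col3a1, the chain of type III, read 12421, 11743 and 11414 and 13853, 13823 and 13648 CPM, and its log2 fold change of 0.22 ± 0.17 did not pass (edgeR adjusted p = 0.398). Col11a1 rose here too, from 67.1, 74.3 and 69.5 to 249, 256 and 248 CPM (log2 fold change 1.84 ± 0.20, edgeR adjusted p = 6.29e-09). Col8a1, a short chain network collagen, rose in both lines, by 0.61 ± 0.12 in D/KO 4F and 0.87 ± 0.12 in WT 4F cells on the log2 scale. The largest called rises at day 4 were Col2a1 (2.68), Col11a1 (1.84) and Col6a5 (1.32) and the largest falls Col9a2 (-2.53), Col6a4 (-2.38) and Col4a6 (-2.16), in log2 fold change, and Col2a1, Col6a4 and Col9a2 were under 3 CPM in each of these libraries. Col9a2 lost the call without day 0 replicate 1 or 3 or day 4 replicate 1 or 2 (-1.95 to -2.44) and was -6.28 without day 4 replicate 3, and Col6a4 lost it without day 0 replicate 1 (-2.0) or day 4 replicate 3 (-1.82). The summed level of 5 tenocyte markers, none of them at 0, moved with the WT 4F falls, from 915 to 1470.4 CPM at day 0 to between 384 and 411 CPM at day 4, and with VC from 656 to 708 CPM to between 122 and 141 CPM. Its part in these results was not tested.

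**Figure D2:**
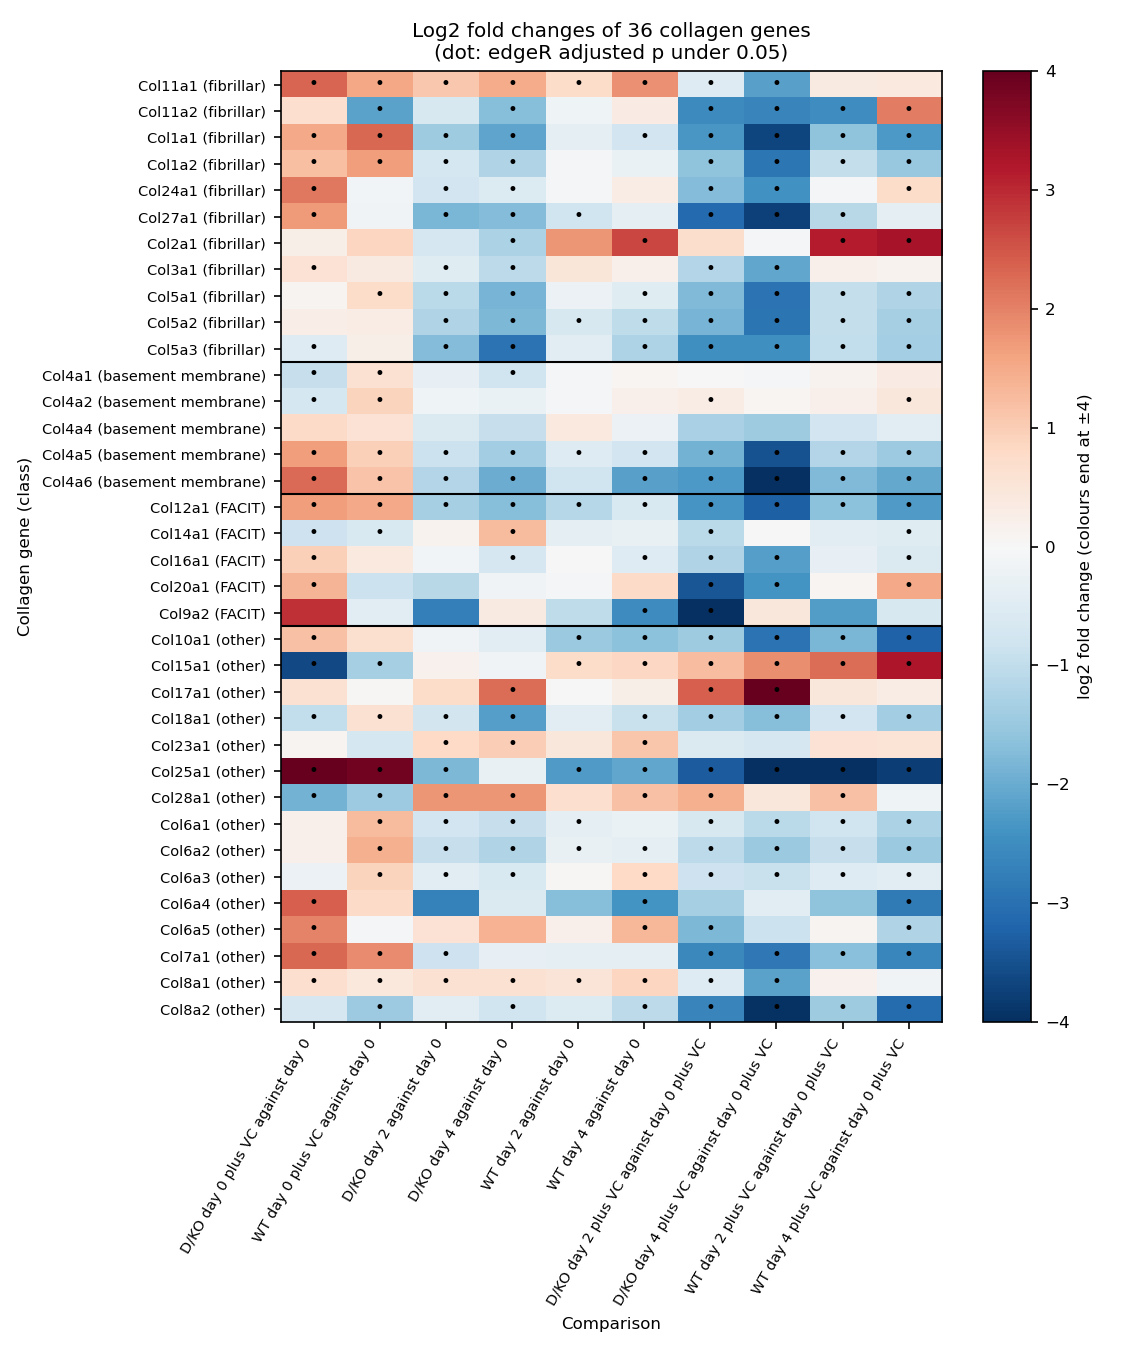
Log2 fold changes (colour, red higher and blue lower, ending at ±4) of the 36 tested collagen genes (rows, by class) in 10 comparisons of the reprogramming table (columns). A dot marks an edgeR adjusted p under 0.05. With VC alone 6 of 11 fibrillar chains were called higher in D/KO 4F cells, and the column of D/KO 4F day 4 plus VC is mostly blue, with 10 of 11 called lower.

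With VC at both time points most tested members fell in D/KO 4F cells. At day 2 plus VC against day 0 plus VC, 4 of the 36 tested members rose and 27 fell, against 23.8% and 23.6% of all genes tested, and at day 4 plus VC, 2 of the 36 tested members rose and 24 fell, against 27.9% and 26.2% of all genes tested. In WT 4F cells at day 2 plus VC, 3 of the 36 tested members rose and 18 fell, against 13.8% and 13.7% of all genes tested, and at day 4 plus VC, 6 of the 36 tested members rose and 20 fell, against 22.7% and 22.0% of all genes tested. Col1a1 read 10665, 11215 and 10194 CPM in D/KO 4F cells at day 4 plus VC, a log2 fold change of -3.67 ± 0.17 (SE, edgeR adjusted p = 2.63e-19) from day 0 plus VC, and 22859, 18693 and 17959 CPM in WT 4F cells (log2 fold change -2.28 ± 0.16, edgeR adjusted p = 7.03e-14). The same libraries can be set against day 0 without VC, a comparison that shares the samples with doxycycline plus VC with the one above. Then 3 members rose and 25 fell of 36 in D/KO 4F cells, against 26.6% and 25.5% of all genes tested, and 8 rose and 14 fell in WT 4F cells, against 20.3% and 18.9%. At day 2 plus VC that baseline gave 3 that rose and 19 that fell in D/KO 4F cells, against 23.3% and 23.4% of all genes tested, and 12 that rose and 8 that fell in WT 4F cells, against 19.5% and 17.8%, so that in WT 4F cells more rose than fell. Against that baseline the log2 fold change of Col1a1 was -2.15 ± 0.16 in D/KO 4F cells (SE, edgeR adjusted p = 1.27e-13) and 0.00 ± 0.16 in WT 4F cells (SE, edgeR adjusted p = 0.997). In WT 4F cells the fall of Col1a1 by day 4 plus VC was thus measured from the level that VC had raised, while in D/KO 4F cells the level at day 4 plus VC was also below day 0 without VC. Of the 11 fibrillar chains 8 fell and 0 rose against that baseline in D/KO 4F cells, and 3 fell and 4 rose in WT 4F cells.

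Other chains went their own way with doxycycline and VC. Col15a1 rose from its low level at day 0 plus VC, to 104, 102 and 86.0 CPM in D/KO 4F cells (log2 fold change 1.87 ± 0.15, edgeR adjusted p = 4.12e-13), and to 281, 224 and 241 CPM in WT 4F cells (log2 fold change 3.22 ± 0.15, edgeR adjusted p = 1.02e-18). Against day 0 without VC it was -1.75 in D/KO 4F cells and 1.91 in WT 4F cells on the log2 scale, so that its direction in D/KO 4F cells turns with the baseline. The 7 endothelial markers summed to 280 to 322 CPM at day 0 plus VC and 568 to 798 CPM at day 4 plus VC in D/KO 4F cells, and to 5.97 to 7.77 CPM and 98.4 to 116 CPM in WT 4F cells, where 3 of them were at 0 at day 4 plus VC. Their part in the rise of Col15a1 was not tested. Col17a1 rose in D/KO 4F cells to 18.3, 14.0 and 13.4 CPM at day 4 plus VC (log2 fold change 4.21 ± 0.40, edgeR adjusted p = 3.51e-11), while WT 4F cells read 1.80, 2.25 and 1.51 CPM. The summed level of 10 keratinocyte markers moved with it, from between 9.40 and 14.2 CPM to between 595 and 692 CPM in D/KO 4F cells, and its part in the result was not tested. Krt14 gave 367 CPM of that sum and Krt5, its usual partner, 0.504 CPM. The largest falls at day 4 plus VC were Col4a6 (-4.45), Col25a1 (-4.35) and Col8a2 (-3.95) in D/KO 4F and Col25a1 (-3.77), Col10a1 (-3.24) and Col8a2 (-3.09) in WT 4F cells, and the largest rises in WT 4F cells Col2a1 (3.30), Col15a1 (3.22) and Col11a2 (2.04), in log2 fold change. Against day 0 without VC, Col25a1 was 0.26 in D/KO 4F and 0.085 in WT 4F cells and Col11a2 -0.093 in WT 4F cells at day 4 plus VC, none of which passed. At day 2 plus VC the largest falls in D/KO 4F cells, with Col9a2 set aside, were Col20a1 (-3.42), Col25a1 (-3.32) and Col27a1 (-3.11). Col9a2 was not ranked there and had no count in any of the 3 libraries. In WT 4F cells the largest falls at day 2 plus VC were Col25a1 (-4.49), Col11a2 (-2.47) and Col10a1 (-1.83). Against day 0 without VC, Col25a1 at day 2 plus VC was 1.30 in D/KO 4F cells (edgeR adjusted p = 0.0279) and -0.63 in WT 4F cells, where it did not pass. From day 0 plus VC to day 2 plus VC in WT 4F cells the call of Col11a2 was lost without day 0 plus VC replicate 1 (-2.19) or day 2 plus VC replicate 3 (-1.94). The largest called rises at day 2 plus VC were Col17a1 (2.40), Col28a1 (1.42) and Col15a1 (1.25) in D/KO 4F cells and Col2a1 (3.14), Col15a1 (2.24) and Col28a1 (1.18) in WT 4F cells, of which Col28a1 in both lines and Col15a1 in D/KO 4F cells turned to negative values against day 0 without VC. Against that baseline Col28a1 did not pass in either line. From day 0 plus VC to day 2 plus VC the call of Col28a1 in D/KO 4F cells was lost without day 0 plus VC replicate 1 (1.25) or 2 (1.18).

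VC was also compared at day 4 itself. In D/KO 4F cells 4 of the 36 tested members rose and 17 fell, against 16.8% and 17.7% of all genes tested, and in WT 4F cells 9 of the 36 tested members rose and 6 fell, against 12% and 10.4% of all genes tested. Col8a1 read 797, 618 and 734 CPM in D/KO 4F cells at day 4 and 199, 150.0 and 161 CPM with VC, a log2 fold change of -2.08 ± 0.13 (SE, edgeR adjusted p = 4.94e-15). For WT 4F cells it was -0.58 ± 0.12 (SE, edgeR adjusted p = 0.000367). Col1a1 did not differ beyond the spread in D/KO 4F cells, with a log2 fold change of -0.04 ± 0.16 (95% interval -0.36 to 0.28), and was higher with VC in WT 4F cells (log2 fold change 0.76 ± 0.16, edgeR adjusted p = 0.000372). Col15a1 went apart, at -1.60 ± 0.14 (SE, edgeR adjusted p = 4.83e-11) in D/KO 4F and 1.09 ± 0.14 (SE, edgeR adjusted p = 2.33e-07) in WT 4F cells. Col14a1, a FACIT of dense connective tissue, read 51.8, 38.8 and 56.1 CPM at day 4 and 14.0, 11.0 and 8.95 CPM with VC in D/KO 4F cells (log2 fold change -2.11 ± 0.19, edgeR adjusted p = 5.76e-11). The largest called rises with VC at day 4 were Col9a2 (3.02), Col17a1 (2.59) and Col6a4 (2.56) in D/KO 4F cells and Col25a1 (2.15), Col2a1 (1.47) and Col4a6 (1.24) in WT 4F cells, in log2 fold change. The largest called falls were Col8a2 (-3.81), Col28a1 (-3.22) and Col14a1 (-2.11) in D/KO 4F cells and Col8a2 (-3.51), Col28a1 (-2.79) and Col6a5 (-2.58) in WT 4F cells. Col6a4 in D/KO 4F cells lost the call without day 4 replicate 1 (2.26), and Col9a2 without day 4 replicate 1 (3.03) or 3 (2.49). In WT 4F cells Col25a1 lost it without day 4 replicate 2 (1.79), and Col2a1 without day 4 replicate 2 (1.31) or day 4 plus VC replicate 1 (1.30).

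The lines differed before any treatment. At day 0, 13 of the 36 tested members were higher in D/KO 4F than in WT 4F cells and 13 were lower, against 22.1% and 21.1% of all genes tested. Col1a1 was higher in D/KO 4F cells by 1.26 ± 0.16 (SE, edgeR adjusted p = 5.62e-08) on the log2 scale, Col4a2 by 1.51 ± 0.12 (SE, edgeR adjusted p = 7.37e-13) and so was Col18a1, the source of endostatin (log2 fold change 1.77 ± 0.16, edgeR adjusted p = 2.33e-11), and endothelial markers were higher in the same libraries. Other marker lists went the other way at day 0, with 5 tenocyte markers summing to 71.2 to 89.9 CPM in D/KO 4F and 915 to 1470.4 CPM in WT 4F cells, and 6 leukocyte markers, 1 of them at 0 in each line, to 12.8 to 13.4 CPM and 75.6 to 146 CPM. The part of these cell types in the differences was not tested. The largest differences were Col2a1 (3.88), Col15a1 (2.31) and Col18a1 (1.77) on the higher side and Col6a5 (-4.87), Col9a2 (-3.54) and Col28a1 (-2.88) on the lower. The change by day 4 was then compared between lines. Without VC, 17 of 36 members fell more (or rose less) in D/KO 4F cells and 2 the other way, against 7.04% and 7.27% of all genes. With VC these were 19 and 1, against 15.5% and 13.9%. All 11 fibrillar chains were called in the latter, each with the lower value in D/KO 4F cells. For Col3a1, which read 20409, 19085 and 22436 CPM at day 0 plus VC and 5243, 4365 and 5041 CPM at day 4 plus VC in D/KO 4F cells, and 15451, 15482 and 15125 and 18113, 16507 and 16073 CPM in WT 4F cells, the difference was -2.22 ± 0.25 (SE, edgeR adjusted p = 1.78e-08) on the log2 scale. D/KO 4F libraries of Col3a1 at day 4 plus VC all lay below those at day 0 plus VC, and WT 4F libraries all above. Col24a1 and Col27a1, fibrillar chains of low level, moved apart in the same way, with differences of -3.16 ± 0.28 (SE, edgeR adjusted p = 8.54e-11) and -3.35 ± 0.44 (SE, edgeR adjusted p = 3.03e-07). Against day 0 without VC, Col24a1 was -0.31 in D/KO 4F cells, where it did not pass, and 0.65 in WT 4F cells, and Col27a1 was -2.04 in D/KO 4F cells and -0.53 in WT 4F cells, where it did not pass, so that these lines lay closer with that baseline. Both genes were chosen after their values were seen. Col2a1, the chain of cartilage type II, was near 0 in WT 4F cells at day 0 (0.276, 0.215 and 0.204 CPM) and read 5.17, 4.06 and 3.50 CPM at day 4 plus VC, while D/KO 4F cells read 6.77, 1.35 and 2.48 CPM at day 0 and 1.68, 0.732 and 1.94 CPM at day 4 without VC. At day 4 plus VC against day 0 without VC, Col2a1 was 4.16 in WT 4F cells on the log2 scale. In D/KO 4F cells it was 0.17 and did not pass. Its difference between lines was -3.95 ± 0.78 (SE, edgeR adjusted p = 0.000384) without VC, and -3.08 without D/KO 4F day 0 replicate 1, the highest library, without which the difference at day 0 was 3.01. Col8a1 with VC fell in D/KO 4F cells (log2 fold change -2.15 ± 0.13, edgeR adjusted p = 8.93e-17) and was -0.15 ± 0.12 in WT 4F cells, where it did not pass, with a difference of -2.0 ± 0.17 (SE, edgeR adjusted p = 4.27e-11).

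**Figure D3:**
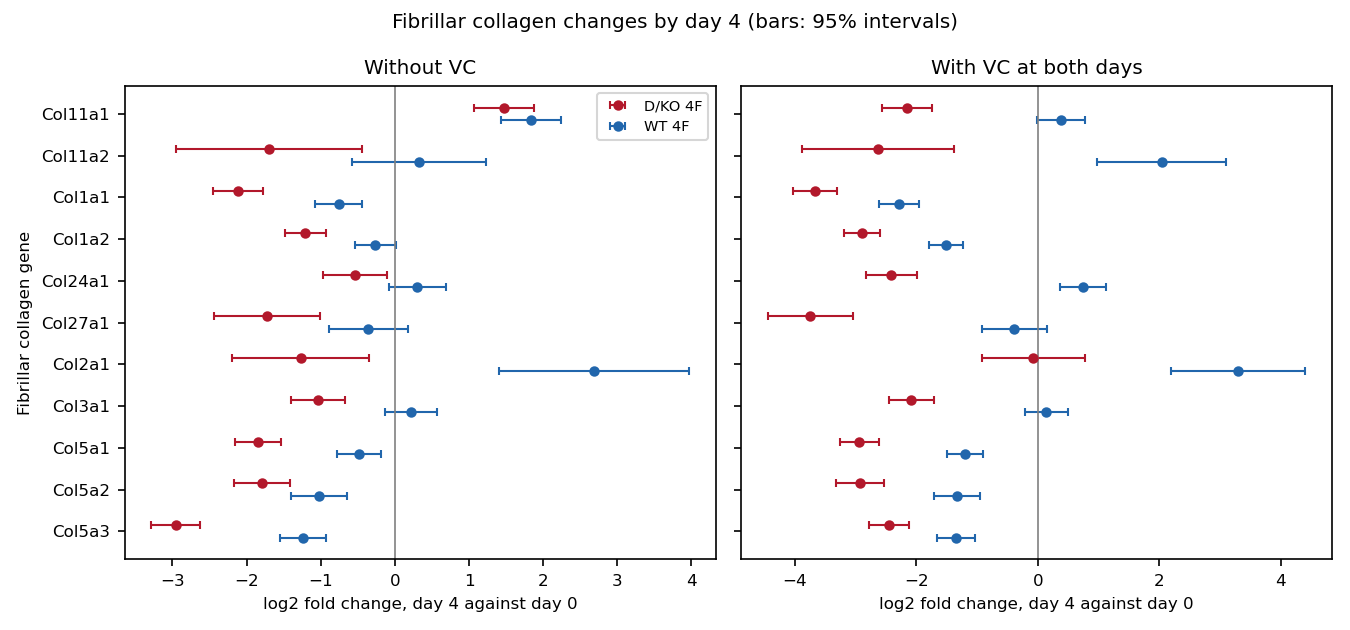
Log2 fold change from day 0 to day 4 (horizontal axis) of the 11 fibrillar collagen genes in D/KO 4F (red) and WT 4F cells (blue), without VC (left) and with VC at both days (right). Bars are 95% intervals. With VC the red point lies left of the blue one for every gene, and for Col3a1 at -2.08 against 0.14.

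Type IV chains split by gene pair. With VC at day 0, Col4a1 went from 3852, 2982 and 2613 to 1634, 1404 and 1970.0 CPM in D/KO 4F cells and from 1138, 1205 and 1145 to 1792, 1831 and 1655 CPM in WT 4F cells. The log2 fold changes were -0.92 ± 0.17 (SE, edgeR adjusted p = 7.93e-05) and 0.60 ± 0.17 (SE, edgeR adjusted p = 0.00708), and those of its neighbour Col4a2 were -0.71 ± 0.12 (SE, edgeR adjusted p = 8.93e-06) and 0.90 ± 0.12 (SE, edgeR adjusted p = 1.45e-07). Both lines ended at a similar level, and the difference between the lines in the VC effect, a contrast added after the data were seen, was -1.51 ± 0.24 (SE, edgeR adjusted p = 3.64e-05) for Col4a1 and -1.62 ± 0.16 (SE, edgeR adjusted p = 1.54e-08) for Col4a2. The other pair rose in both lines. Col4a5 went from 226, 184 and 127 to 655, 522 and 548 CPM in D/KO 4F cells (log2 fold change 1.68 ± 0.16, edgeR adjusted p = 1.41e-10), and Col4a6 from 4.45, 6.63 and 1.77 to 24.7, 19.4 and 17.2 CPM (log2 fold change 2.25 ± 0.29, edgeR adjusted p = 1.64e-07). WT 4F cells had 0.97 ± 0.15 and 1.13 ± 0.27. In that added contrast 7 members of 36 were higher and 10 lower in D/KO 4F cells, against 6.93% and 8.35% of all genes tested. Col4a5 and Col4a6 fell in every one of the 4 comparisons of day 4 with day 0, with -0.77 to -3.49 for Col4a5 and -1.99 to -4.45 for Col4a6 in log2 fold change. Col4a1 passed the test in 1 of those 4, at -0.79 ± 0.17 (SE, edgeR adjusted p = 0.000305) in D/KO 4F cells without VC, and Col4a2 in 1 of them, at 0.46 ± 0.12 (SE, edgeR adjusted p = 0.00149) in WT 4F cells with VC. Against day 0 without VC the libraries of day 4 plus VC passed for both genes in both lines and in opposite directions, with log2 fold changes of -0.97 ± 0.17 (SE, edgeR adjusted p = 1.07e-05) for Col4a1 and -0.63 ± 0.12 (SE, edgeR adjusted p = 2.19e-05) for Col4a2 in D/KO 4F cells and 0.94 ± 0.17 (SE, edgeR adjusted p = 3.3e-05) and 1.36 ± 0.12 (SE, edgeR adjusted p = 7.17e-12) in WT 4F cells. Endothelial markers fell with VC in the same D/KO 4F libraries as Col4a1, Col4a2, Col15a1 and Col18a1, as given above, and also from day 0 to day 4 without VC, to between 386 and 431 CPM, and their part was not tested. Where strand was not used, reads from the overlapping exons of Col4a1 and Col4a2 could be counted for either gene or left out of both.

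**Figure D4:**
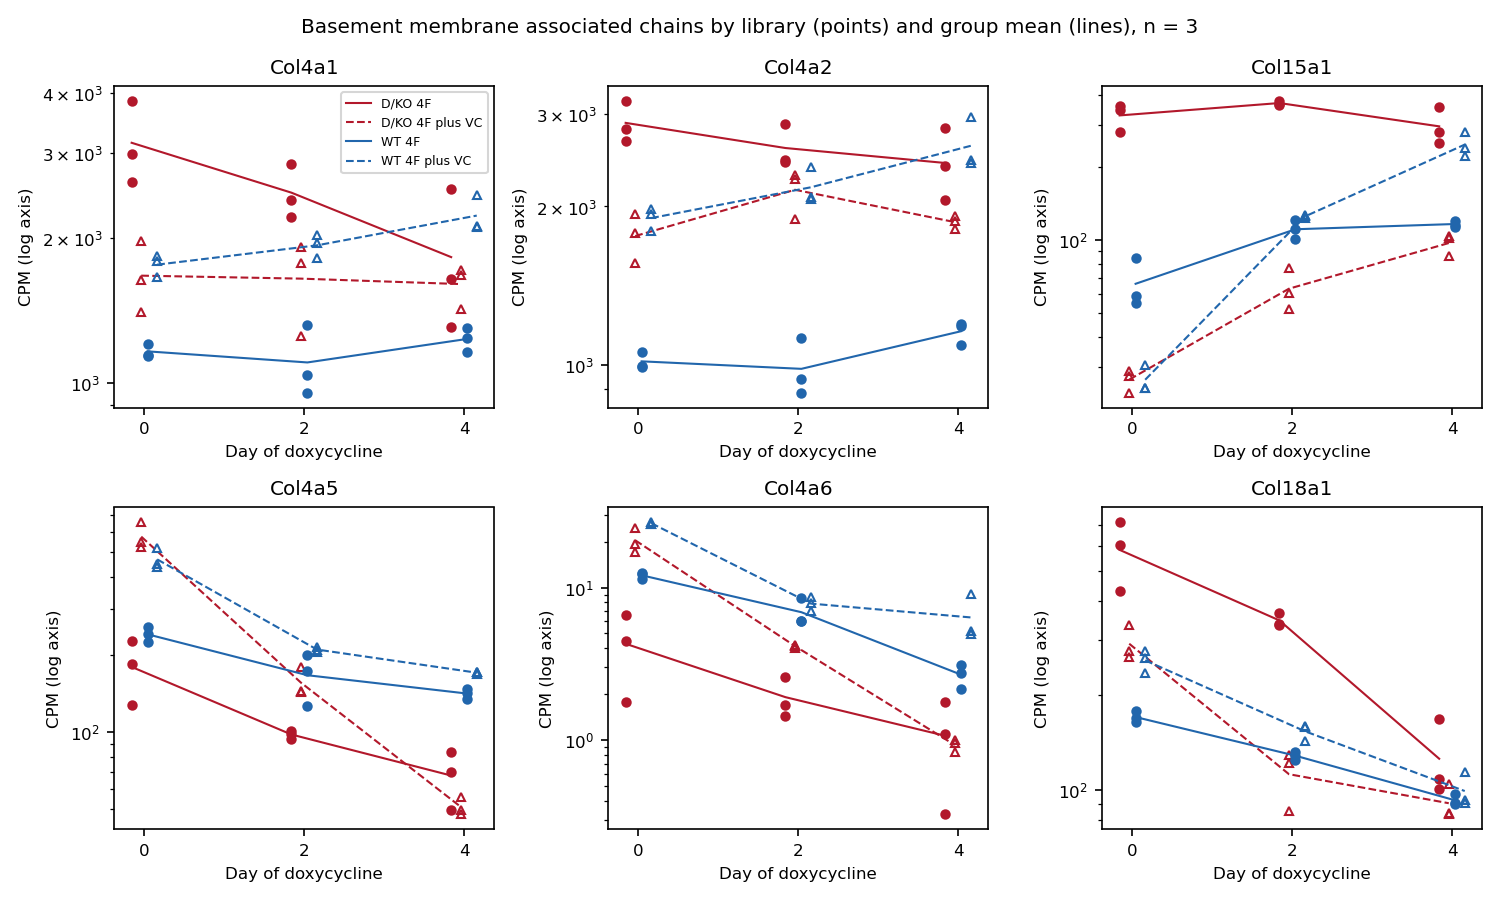
CPM (vertical axis, log scale) against day of doxycycline (horizontal axis) for Col4a1, Col4a2, Col15a1, Col4a5, Col4a6 and Col18a1. Red is D/KO 4F and blue WT 4F, filled circles and solid lines are without VC and open triangles and broken lines with VC, points are libraries and lines join group means of 3. With VC at day 0 Col4a1 was 1669 ± 285 CPM in D/KO 4F and 1759 ± 92.3 CPM in WT 4F cells (mean ± SD), from 3149 ± 636 and 1163 ± 36.7 CPM without it.

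Type VI chains form beaded microfilaments around cells. With VC at day 0 Col6a1 went from 2323, 2267 and 2193 to 5483, 4989 and 5910.3 CPM in WT 4F cells (log2 fold change 1.27 ± 0.11, edgeR adjusted p = 3.76e-11), and from 3621, 4083 and 4031 to 4175, 5409.6 and 3807 CPM in D/KO 4F cells, where its log2 fold change was 0.19 ± 0.11 (edgeR adjusted p = 0.219). The added contrast between lines gave -1.08 ± 0.16 (SE, edgeR adjusted p = 7.89e-06) for Col6a1, -1.22 ± 0.14 for Col6a2 and -1.13 ± 0.20 for Col6a3. By day 4 of doxycycline in D/KO 4F cells all 3 fell, with log2 fold changes of -0.93 ± 0.11, -1.19 ± 0.10 and -0.61 ± 0.14. Col6a3 rose instead in WT 4F cells at day 4 (log2 fold change 0.80 ± 0.14, edgeR adjusted p = 3.35e-05), while Col6a2 fell (log2 fold change -0.39 ± 0.10, edgeR adjusted p = 0.00322). Among FACIT chains Col12a1 was the most abundant, at 4182, 4650.0 and 3667 CPM in D/KO 4F cells at day 0 and 1213, 722 and 1876 CPM at day 4, a log2 fold change of -1.71 ± 0.20 (SE, edgeR adjusted p = 1.23e-08). WT 4F cells gave -0.61 ± 0.20 (SE, edgeR adjusted p = 0.0225), and that call was lost without day 0 replicate 1 or 3 or any one of the day 4 libraries. Col14a1 went the other way in D/KO 4F cells without VC, from 24, 20.5 and 16.9 to 51.8, 38.8 and 56.1 CPM (log2 fold change 1.26 ± 0.18, edgeR adjusted p = 5.82e-07). Col16a1 fell (log2 fold change -0.68 ± 0.18, edgeR adjusted p = 0.00321), but without day 0 replicate 1, the high library, it did not pass, at -0.35.

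The ratio of the type I chains differed between days. Per kilobase, Col1a1 stood to Col1a2 at 4.07 ± 0.448 without VC in D/KO 4F cells at day 0 and 2.15 ± 0.207 at day 4, and with VC at 4.94 ± 0.788 and then 2.91 ± 0.142 (mean ± SD, n = 3). The same ratios in WT 4F cells were 3.08 ± 0.0529, 2.18 ± 0.0421, 4.68 ± 0.212 and 2.73 ± 0.0532. The ratio was lower at day 4 than at day 0 in both lines, without and with VC, with no overlap of libraries. In the inhibitor table it was 3.90 ± 0.0841 in the D/KO control and 3.87 ± 0.0896 with Repsox, whose ranges overlapped although both genes fell. With A83-01, where both genes also fell, it was 3.55 ± 0.0816, all 3 libraries below the control, and with Vactosertib 4.05 ± 0.106 and DMH-1 3.92 ± 0.233, which overlapped the control. For type IV the ratio of Col4a1 to Col4a2 was 0.962 ± 0.104 in D/KO 4F cells at day 0 and 0.656 ± 0.123 at day 4, and 1.02 ± 0.00525 and 0.944 ± 0.0159 in WT 4F cells, with no overlap of the days in either line. With VC the libraries of day 0 and day 4 overlapped in both lines, at 0.700 to 0.929 and 0.660 to 0.819 in D/KO 4F cells and 0.744 to 0.905 and 0.734 to 0.778 in WT 4F cells. Lengths are of all annotated exons of a gene, which for Col1a2 exceed those of Col1a1, so the ratios serve to compare groups and do not give the number of chains.

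Genes that process collagen were read from a fixed list. Of 18 genes of folding and modification, 14 fell and 0 rose at day 4 in D/KO 4F cells and 12 fell and 1 rose in WT 4F cells, where 18.7% and 12.8% of all genes fell. With VC 16 fell and 1 rose in D/KO 4F cells and 16 fell and 2 rose in WT 4F cells, where 26.2% and 22.0% of all genes fell. P4ha3, a catalytic subunit of prolyl 4-hydroxylase, fell with log2 fold changes of -2.12 ± 0.14 in D/KO 4F and -1.43 ± 0.13 in WT 4F cells without VC and -2.98 ± 0.14 and -2.79 ± 0.14 with it. With VC alone at day 0, 10 of the 18 rose in D/KO 4F and 11 in WT 4F cells, against 12.1% and 15.1% of all genes, and P4ha3 was 0.67 ± 0.13 and 1.49 ± 0.13. Of 16 genes of secretion, trimming and crosslinking, 12 fell and 2 rose at day 4 plus VC in D/KO 4F cells, and 9 fell and 3 rose in WT 4F cells, against 27.9% and 22.7% of all genes that rose there. Lox, which crosslinks fibrils, had log2 fold changes of -3.43 ± 0.13 and -2.12 ± 0.13. Pcolce2, an enhancer of procollagen trimming, rose in WT 4F cells, by 3.24 ± 0.16. Of 9 receptors 5 fell and 0 rose in D/KO 4F and 4 fell and 1 rose in WT 4F cells, with log2 fold changes of the fibrillar collagen receptor subunit Itga11 of -4.63 ± 0.17 and -4.11 ± 0.17. Of 7 fibril-associated proteoglycans 6 fell and 0 rose and 4 fell and 1 rose, with log2 fold changes of Lum, which spaces fibrils, of -3.38 ± 0.14 and -1.23 ± 0.13, after rises with VC alone of 2.59 ± 0.14 and 1.58 ± 0.13. Summed proteoglycans in WT 4F cells were 10283 to 10668 CPM at day 4 plus VC, within the 10226 to 11211 CPM of day 0 without VC, and in D/KO 4F cells 4975 to 5521 CPM against 7757 to 10859 CPM. The median log2 fold change of the 36 collagens was -2.15 in D/KO 4F and -0.60 in WT 4F cells, and that of all genes 0.01 and 0.03. Against day 0 without VC the medians of the collagens were -1.26 and -0.12.

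Inhibitors of the TGF-beta receptor family were compared with the untreated D/KO control, which all 4 comparisons share. With Repsox, 5 of the 38 tested members rose and 14 fell, against 11.0% and 9.73% of all genes tested. With Vactosertib, 5 of the 38 tested members rose and 11 fell, against 9.37% and 8.70% of all genes tested. With A83-01, 8 of the 38 tested members rose and 14 fell, against 13.6% and 13.9% of all genes tested. With DMH-1, 1 of the 38 tested members rose and 3 fell, against 4.35% and 2.90% of all genes tested. The collagen share of counts was 10.0, 10.7 and 11.1% in the control, 6.44, 4.42 and 6.21% with Repsox, 6.25, 6.87 and 6.33% with Vactosertib, 5.57, 5.76 and 5.37% with A83-01 and 10.8, 8.69 and 8.69% with DMH-1. The libraries with Repsox, Vactosertib and A83-01 all lay below the control, and those with DMH-1 overlapped it. Col5a1 read 5938, 6863 and 7264 CPM in the control, 2200.5, 1238 and 1998 with Repsox, 1991, 2591 and 2153 with Vactosertib, 1737, 1921 and 1833 with A83-01 and 4768, 4025 and 3834 with DMH-1. The log2 fold changes were -1.88 ± 0.23 (SE, edgeR adjusted p = 4.01e-06), -1.57 ± 0.23 (SE, edgeR adjusted p = 4.27e-05) and -1.87 ± 0.23 (SE, edgeR adjusted p = 2.78e-06) with Repsox, Vactosertib and A83-01, and -0.67 ± 0.23 with DMH-1, which did not pass (edgeR adjusted p = 0.0846). Col1a1, Col1a2, Col3a1, Col5a2 and Col5a3 fell with each of Repsox, Vactosertib and A83-01, with log2 fold changes of Col1a1 of -1.04 ± 0.21 (SE, edgeR adjusted p = 0.0011), -0.81 ± 0.21 (SE, edgeR adjusted p = 0.00979) and -1.11 ± 0.21 (SE, edgeR adjusted p = 0.000413). Col3a1 with DMH-1 was 0.23 ± 0.18, with a 95% interval of -0.14 to 0.59. Col7a1 read 34.8, 41.1 and 43.1 CPM in the control, 7.27, 4.94 and 6.83 with Repsox, 6.32, 6.50 and 8.09 with Vactosertib, 5.0, 6.87 and 6.25 with A83-01 and 17.6, 15.2 and 14.4 with DMH-1, with log2 fold changes of -2.64 ± 0.20, -2.51 ± 0.20, -2.71 ± 0.20 and -1.33 ± 0.19 (SE, edgeR adjusted p = 8.08e-05), so that it also fell with the ALK2 inhibitor. Fitted on the D/KO control and DMH-1 libraries alone, 14 members passed with DMH-1 where 4 did in the fit of all 24 libraries. With DMH-1 the calls of Col5a2, Col6a5 and Col10a1 were lost when any one of the 6 libraries of that comparison was left out, apart from Col10a1 without DMH-1 replicate 2.

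Some chains rose. Col6a4, Col6a5 and Col6a6, type VI chains of genes that neighbour each other on chromosome 9, were low in the control and higher with the ALK5 inhibitors. Col6a5 read 0.128, 0.537 and 0.354 CPM in the control, 5.52, 2.39 and 4.83 with Repsox, 2.33, 3.82 and 3.39 with Vactosertib and 5.04, 9.62 and 5.51 with A83-01, log2 fold changes of 3.66 ± 0.57 (SE, edgeR adjusted p = 6.14e-05), 3.24 ± 0.57 (SE, edgeR adjusted p = 0.000323) and 4.32 ± 0.56 (SE, edgeR adjusted p = 4.82e-06). Col6a4 read 0.596, 0.732 and 0.590 CPM in the control and 5.19, 4.50 and 4.44 CPM with A83-01 (log2 fold change 2.87 ± 0.33, edgeR adjusted p = 9.42e-07), and was 2.93 ± 0.33 with Repsox and 2.56 ± 0.33 with Vactosertib. Col6a6 read 0, 0.195 and 0.0590 CPM in the control and 1.92, 1.72 and 1.40 CPM with A83-01 (log2 fold change 4.26 ± 0.66, edgeR adjusted p = 6.26e-05), and 3.62 and 5.80 without control replicate 1 or 2. It was 3.05 ± 0.70 with Repsox (SE, edgeR adjusted p = 0.00354) and 2.35 ± 0.74 with Vactosertib (SE, edgeR adjusted p = 0.032), and the call with Vactosertib was lost without control replicate 1 (1.71) or 3 (2.20) or Vactosertib replicate 2 (2.12) or 3 (2.40). The abundant type VI chains Col6a1 and Col6a3 did not pass with any of the 4, at -0.34 ± 0.25 and -0.07 ± 0.37 with Repsox. Col10a1, a short chain collagen of growth plate cartilage, read 2.90, 2.98 and 3.19 CPM in the control, 7.20, 4.18 and 8.49 with Repsox, 7.74, 7.03 and 6.84 with Vactosertib, 7.27, 12.5 and 12.9 with A83-01 and 1.32, 1.82 and 0.947 with DMH-1. It was higher with the ALK5 inhibitors, with A83-01 by 1.85 ± 0.30 (SE, edgeR adjusted p = 6.38e-05) on the log2 scale, and lower with DMH-1 (log2 fold change -1.12 ± 0.32, edgeR adjusted p = 0.0358). Its GENCODE M39 exons overlap those of Nt5dc1 on the other strand by 651 bases. Where strand was not used, reads from that stretch could be counted with it or left out. Col23a1, a transmembrane collagen, rose by 0.95 ± 0.25, 1.03 ± 0.25 and 2.27 ± 0.25 (SE, edgeR adjusted p = 0.00906, 0.00596 and 4.27e-07) with Repsox, Vactosertib and A83-01. With Repsox the call of Col23a1 was lost without control replicate 1 (0.67) or Repsox replicate 3 (0.72), and that of Col10a1 without Repsox replicate 3 (0.92). Col4a1 and Col4a2 read 1653, 641 and 1376 and 1737, 790.2 and 1502 CPM with Repsox against 2086, 2743 and 2774 and 2162, 2624 and 2796 CPM in the control. Repsox replicate 2 was the lowest, and without it the log2 fold changes were -0.74 and -0.64 and did not pass. Without control replicate 2 or 3 they did not pass either, at -0.99 and -0.98 for Col4a1 and -0.89 and -0.83 for Col4a2, nor did Col4a2 without Repsox replicate 3 (-1.0).

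**Figure D5:**
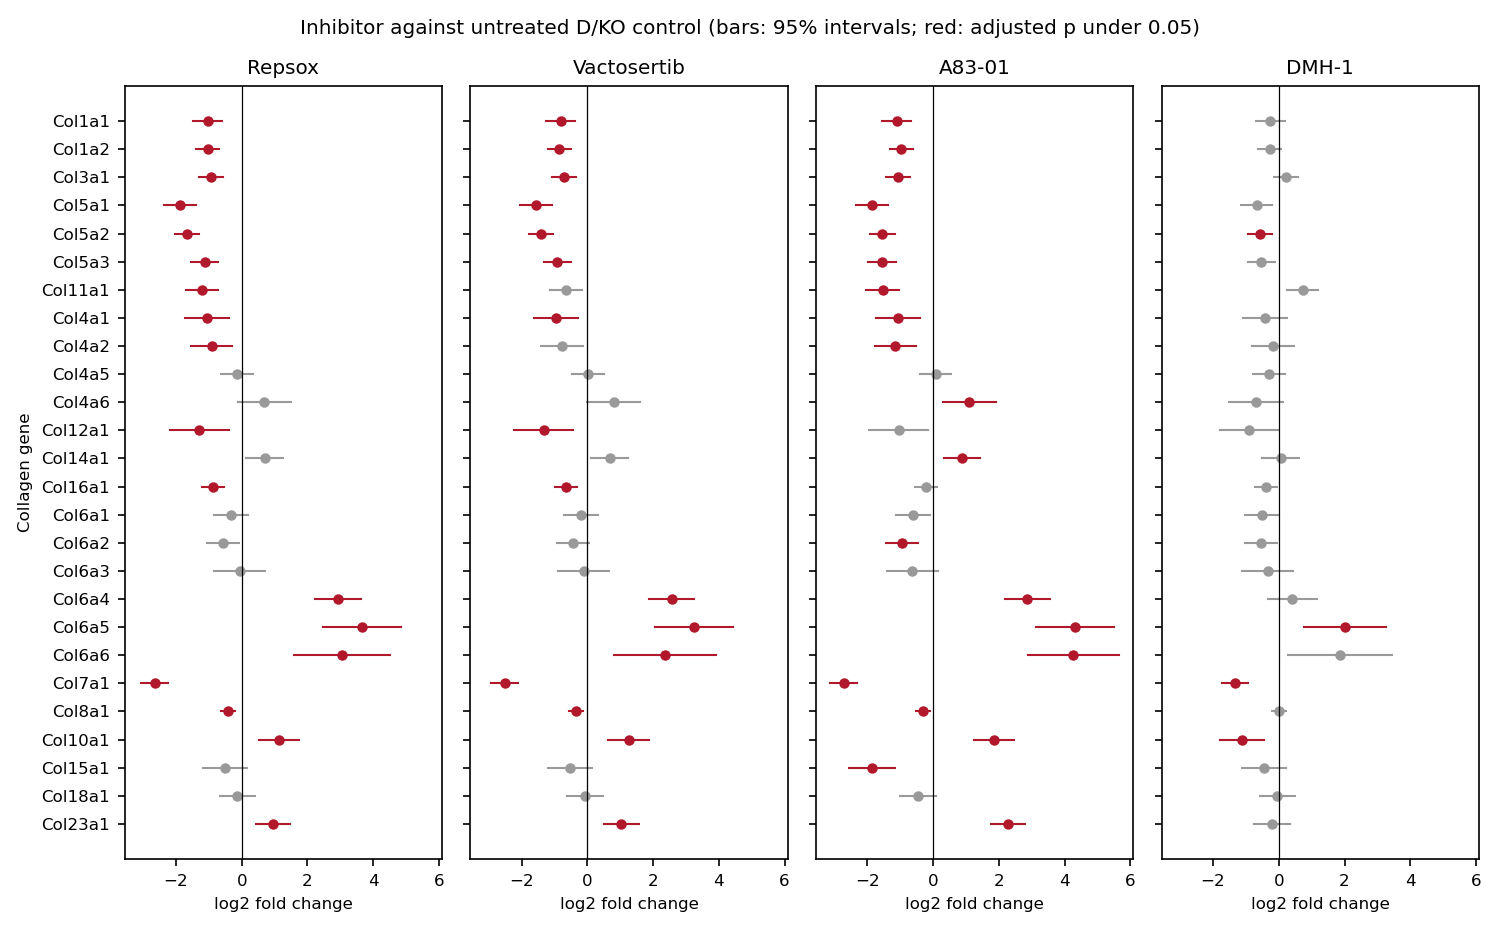
Log2 fold change against the untreated D/KO control (horizontal axis) of 26 collagen genes (rows) for each of the 4 inhibitors (panels). Points are estimates, bars 95% intervals, and red marks an edgeR adjusted p under 0.05. Fibrillar chains at the top lie left of 0 with Repsox, Vactosertib and A83-01, and Col6a5 lies at 4.32 with A83-01 and 2.02 with DMH-1.

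Compounds were compared directly where the dose was the same, in 2 pairs. Repsox and Vactosertib (each 0.1 µM) differed in 0 of 38 members, and in 0% and 0% of all genes in the 2 directions, by edgeR. At an unadjusted p under 0.05 edgeR gave 1 member, and DESeq2 gave 0 after adjustment. The 95% interval of the difference was -0.67 to 0.20 for Col1a1 and -0.78 to 0.16 for Col5a1 on the log2 scale. A83-01 and DMH-1 (each 1 µM) differed: 7 members were higher and 12 lower with A83-01, against 9.67% and 10.8% of all genes tested. Col11a1 read 17.1, 18.4 and 13.2 CPM with A83-01 and 88.4, 75.7 and 70.0 CPM with DMH-1, a log2 difference of -2.27 ± 0.24 (SE, edgeR adjusted p = 4.49e-07), and that of Col3a1 was -1.29 ± 0.18 (SE, edgeR adjusted p = 1.62e-05). On the other side were Col10a1 (2.97), Col23a1 (2.47) and Col6a4 (2.46), in log2 difference. The largest on the lower side was Col25a1 (-3.26), at under 1 CPM in each of these libraries, and its call was lost without A83-01 replicate 2 (-2.71) or DMH-1 replicate 2 (-2.83). Next after Col11a1 came Col15a1 (-1.40). Of the genes of folding and modification 11, 10, 12 and 3 of 17 fell with Repsox, Vactosertib, A83-01 and DMH-1 and none rose, against 9.73%, 8.70%, 13.9% and 2.90% of all genes that fell. The log2 fold changes of the lysyl hydroxylase gene Plod2 were -1.96 ± 0.11, -1.84 ± 0.11, -2.13 ± 0.11 and -0.80 ± 0.10. Of 16 genes of secretion, trimming and crosslinking 10, 9, 11 and 6 fell, against the same shares. Summed osteoblast markers were 828 to 1029.8 CPM in the control, 59.4 to 65.0 CPM with A83-01 and 324 to 441 CPM with DMH-1, and their part in these results was not tested.

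Untreated fibroblasts of the inhibitor table also differed by line and by site. Between the D/KO control and the WT tail tip control 11 of the 38 tested members were higher in D/KO cells and 12 were lower, against 17.9% and 16.6% of all genes tested. Col4a1 read 2086, 2743 and 2774 CPM in D/KO and 603, 774 and 534 CPM in WT tail tip cells, a log2 difference of 1.99 ± 0.33 (SE, edgeR adjusted p = 6.3e-05), and Col14a1 read 46.1, 59.5 and 62.6 and 390.2, 529.9 and 372 CPM (log2 fold change -2.94 ± 0.28, edgeR adjusted p = 5.09e-08). Summed endothelial markers were 341 to 383 CPM and 78.1 to 96.7 CPM in the same groups, and their part was not tested. Col8a2 and Col23a1 were lower in D/KO cells, with log2 differences of -4.98 ± 0.23 and -4.56 ± 0.26, and Col25a1 had no count in the 3 WT tail tip libraries and 0.596, 0.244 and 0.590 CPM in D/KO cells. Between WT skin and WT tail tip 12 of the 38 tested members were higher in skin and 10 were lower, against 18.1% and 16.1% of all genes tested. Col8a1 read 889, 906 and 840.5 CPM in skin and 185, 219.6 and 183 CPM in tail tip (log2 fold change 2.17 ± 0.11, edgeR adjusted p = 3.95e-12), and Col12a1 read 2625, 9957 and 8532 and 1324, 2606 and 1191 CPM (log2 fold change 2.04 ± 0.44, edgeR adjusted p = 0.0009). Skin replicate 1, the library that stood apart, was the lowest for Col12a1 and not for Col8a1. Without it the log2 differences were 2.44 for Col12a1, 2.16 for Col8a1 and 1.07 for Col1a1 (with it 0.78), and 7 members were called lower and 14 higher, the calls of Col4a4, Col15a1 and Col5a3 being lost. Without skin replicate 2 the log2 difference of Col1a1 was 0.57 and did not pass, and 8 members were called higher. The lowest in skin were Col6a6 (-4.36), Col6a5 (-3.72) and Col8a2 (-3.31), in log2 difference, and without single skin libraries Col6a6 ran from -3.76 to -5.18 and Col6a5 from -3.11 to -4.68.

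WT 4F cells labelled TGFB have no control of the same line in that table, so their levels are given without a test. Col7a1 read 784, 771 and 943 CPM, Col5a3 1226, 1273 and 1386 CPM and Col8a1 1428, 1432 and 1551 CPM, each above all 9 libraries of the D/KO, WT tail tip and WT skin controls. The type III chain was low, with Col3a1 at 2637, 2685 and 3207 CPM, as was the type VI chain Col6a1, at 379.7, 389 and 363 CPM, and Col14a1 read 0.658, 0.784 and 0.413 CPM. Each of these 3 genes lay below all 9 control libraries, as did Col6a2 and Col6a3. Col1a1 read 40401, 43125 and 38609.7 CPM, within the range of the controls. Summed skeletal muscle markers were 1711 to 2063 CPM in these libraries and 16.1 to 21.3 CPM in WT tail tip cells. Of the 7 markers, 3 and 4 were at 0 in these groups, and their part was not tested.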

How the data were processed

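RNA-seq counts per gene were taken as the authors deposited them, raw and not normalized, in 1 table of 36 libraries (reprogramming) and 1 of 24 (inhibitors). Per the study's methods and the submitters' processing notes, polyadenylated RNA was read in 150-base pairs, trimmed with Trim Galore, aligned to GRCm39 with HISAT2 and counted with featureCounts of Subread. Versions, annotation release and the use of strand are not given in the sources used here. Identifiers were matched to GENCODE M39 symbols (98.7% found).

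Each table was fitted once with edgeR 4.0.16 (quasi-likelihood F-test, TMM scaling, a term per group) in R 4.3.3, after filterByExpr (minimum count 10, minimum total 15). P-values were adjusted by Benjamini-Hochberg over all genes of a comparison and called under 0.05. SE is the log2 fold change divided by the root of F. CPM uses TMM-scaled library totals. Fits were tested on simulated counts. Alternatives were DESeq2 1.42.0, other scaling, other filters, fewer groups, another baseline and leaving out each library. The members and lists were chosen with earlier results of these data known. Named genes came from 22 fixed members, the 3 largest called changes each way and, of the other lists, the 2 genes of smallest p, apart from those said to be chosen later. The contrast of VC effects between lines was added after seeing the data.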

Additional observations from a re-analysis of the deposited data

Results flagged for a closer look

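Changes that differed between the D/KO 4F and WT 4F lines, by edgeR's test of the difference itself, are given as the log2 fold change in D/KO 4F cells minus that in WT 4F cells. The lines also differ in sex, age and mouse, which cannot be told apart from genotype. Counts below are of 36 tested members. Beside them, 7.27% of all genes were called higher and 7.04% lower for the change by day 4 without VC. With VC these shares were 13.9% and 15.5%, and for the effect of VC at day 0 they were 6.93% and 8.35%. From day 0 to day 4 without VC, 19 collagen genes differed, among them Col4a1 (-0.87), Col4a5 (-0.64), Col12a1 (-1.10), Col14a1 (1.56), Col1a1 (-1.35), Col1a2 (-0.94), Col2a1 (-3.95), Col3a1 (-1.25), Col5a1 (-1.36), Col5a2 (-0.77), Col5a3 (-1.72), Col15a1 (-0.97), Col17a1 (2.01), Col18a1 (-1.33), Col6a1 (-0.67), Col6a2 (-0.80) and Col6a3 (-1.41). With 1 of the 12 libraries left out, the call of Col4a5 was lost in 9 cases (-0.43 to -0.68), that of Col5a2 in 8 (-0.45 to -0.79), that of Col17a1 without D/KO 4F day 0 replicate 2 (1.53) or WT 4F day 0 replicate 1 (1.78), and that of Col4a1 without D/KO 4F day 0 replicate 1 (-0.70), without which Col2a1 was -3.08. From day 0 plus VC to day 4 plus VC, 20 differed, among them Col4a5 (-2.03), Col4a6 (-2.39), Col12a1 (-1.01), Col16a1 (-1.63), Col20a1 (-3.91), Col11a1 (-2.54), Col11a2 (-4.67), Col1a1 (-1.39), Col1a2 (-1.39), Col2a1 (-3.37), Col3a1 (-2.22), Col5a1 (-1.74), Col5a2 (-1.60), Col5a3 (-1.10), Col15a1 (-1.35), Col17a1 (3.93) and Col8a1 (-2.0). Among these, Col2a1, Col11a2 and Col20a1 were low, with at most 7.35, 3.37 and 4.33 CPM in a reprogramming library. The effect of VC at day 0, a contrast added after the data were seen, differed for 17, among them Col4a1 (-1.51), Col4a2 (-1.62), Col4a5 (0.72), Col4a6 (1.12), Col20a1 (2.23), Col11a2 (2.82), Col1a1 (-0.77), Col24a1 (2.20), Col5a1 (-0.65), Col5a3 (-0.73), Col15a1 (-2.31), Col18a1 (-1.60), Col6a1 (-1.08), Col6a2 (-1.22) and Col6a3 (-1.13). There the call of Col4a6 was lost in 9 of 12 cases with 1 library left out (0.74 to 1.15, edgeR adjusted p = 0.0616 to 0.191), those of Col4a5 and Col5a1 in 5 each (0.52 to 0.69 and -0.46 to -0.64), and those of Col1a1 (-0.57 and -0.61) and Col5a3 (-0.57 and -0.69) without D/KO 4F day 0 replicate 1 or day 0 plus VC replicate 1.

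WT 4F cells labelled TGFB enter no comparison. Genes were counted only where the higher side was above 1 CPM in every library. In 5 such collagen genes all 3 of these libraries lay above all 9 control libraries of the inhibitor table, and in 10 all 3 lay below, without a test. Col2a1, not counted, also lay below, with at most 0.219 CPM against at least 0.354 CPM in the controls. The share of all genes that lay so was not computed. Mean levels of those above were 5241 CPM for Col4a1, 3732 CPM for Col4a2, 1295 CPM for Col5a3, 832 CPM for Col7a1 and 1470.3 CPM for Col8a1. Cell line, age and treatment cannot be told apart there.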

How the results depend on the processing

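No paired analysis was possible because the replicate numbers in the labels run through the libraries and tie no library of one group to one of another. With 3 libraries a group and 1 mouse a line, the tests measure the spread between libraries only.

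Taking day 0 without VC as the baseline of day 4 plus VC or day 2 plus VC turned the sign of 22 called log2 fold changes, which follows from the change that VC itself made at day 0. In D/KO 4F cells at day 2 they became 1.30 for Col25a1, 1.78 for Col11a1, -2.38 for Col15a1, -0.47 for Col28a1, -0.42 for Col4a2 and 0.16 for Col8a1, and at day 4 0.26 for Col25a1, 0.16 for Col11a1 and -1.75 for Col15a1. In WT 4F cells at day 2 they became 0.38 for Col6a3, 0.73 for Col1a2, -0.29 for Col28a1, 0.51 for Col6a2, 0.48 for Col6a1, 0.22 for Col7a1 and 0.68 for Col1a1, and at day 4 0.46 for Col6a3, 0.085 for Col25a1, 0.18 for Col1a2, 0.0061 for Col6a1, 0.0028 for Col1a1 and -0.093 for Col11a2. Some of these values did not pass (edgeR adjusted p = 0.287 to 0.997), so that there a change was lost and not turned. In D/KO 4F cells they were Col28a1 and Col8a1 at day 2 and Col25a1 and Col11a1 at day 4. In WT 4F cells they were Col28a1 and Col7a1 at day 2 and all but Col6a3 at day 4.

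Counts of collagen genes called moved by over 1.5 times in these cases. Without a filter on low counts, WT day 2 against day 0 gave 17 in place of 11. Asking for at least 10 counts in every library, which tests fewer genes, gave 14 in place of 23 for WT day 4, 17 in place of 26 for WT day 4 plus VC against day 0 plus VC, 9 in place of 15 for WT day 4 plus VC against day 4, 17 in place of 26 for D/KO against WT at day 0, 14 in place of 23 for D/KO control against WT tail tip control, 13 in place of 22 for skin against tail tip and 2 in place of 4 for DMH-1. Fitting only the groups compared gave 25 in place of 16 for Vactosertib, 14 in place of 4 for DMH-1 and 12 in place of 22 for skin. DMH-1 also gave 7 with DESeq2 and 11 from 18 libraries without the skin and TGFB-labelled groups. Where fewer genes or libraries do not account for a move, the cause was not tested. Leaving out 1 library gave 4 to 10 for WT day 2, lowest without WT 4F day 2 replicate 2, and 1 to 2 for DMH-1, and moved no other count by over 1.5 times.

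Over the collagen genes that were named and called, 2431 values kept direction and call with 1 library left out, 257 lost the call and 0 turned. DESeq2 kept 399 of 399 called directions and calls. Calls lost with the direction kept were 30 when only the groups compared were fitted (356 kept), 8 without a filter on low counts, 4 with scaling without the collagen genes, 3 with DESeq2 size factors, 2 with at least 10 counts in every library and 13 with day 0 without VC as the baseline (52 kept).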
